A study of Homo sapiens with 12 samples.

Results

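A set of 10 genes that restrain or report signalling through the ERK pathway was followed across the 4 treatment groups of an RNA sequencing experiment on NUGC-4, an established diffuse gastric cancer cell line. The 10 genes were DUSP4, DUSP5, DUSP6, SPRY2, SPRY4, SPRED1, SPRED2, ETV4, ETV5 and PHLDA1, taken by symbol from the 60623 genes of the count matrix. All 10 passed the filter on low counts and were among the 17096 genes tested. The genotype label of every library is WT. Controls received no labelled drug, a further group received 1 µM IN10018, another received 1 µM crizotinib, and the combination group received both drugs at 1 µM each, all for 24 h and with 3 libraries per group. IN10018 is an inhibitor of focal adhesion kinase (FAK), the product of PTK2. Crizotinib blocks 3 receptor tyrosine kinases, MET, ROS1 and ALK. The series title concerns joint inhibition of FAK and ROS1 in cancers that lack CDH1. No label states that the replicate libraries are independent cultures, so the p-values here describe only how far these libraries differ from each other.

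Growth factor receptors activate the kinases RAF, MEK and ERK in turn, and active ERK induces genes whose products act back on the same pathway. Dual-specificity phosphatases (DUSPs) remove phosphate from MAP kinases. Sprouty (SPRY) and SPRED proteins act further upstream, where they limit the activation of RAS and RAF. ETV4 and ETV5 are transcription factors of the ETS family that are widely read as ERK outputs, and PHLDA1 encodes a protein with a pleckstrin homology domain that is induced by receptor tyrosine kinase signalling.

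The reads per library ran from 13691844 to 20489708, and the smallest count of a member in any library was 241 reads. Levels are given as CPM, which are read counts scaled to a common library size after TMM. TMM corrects library totals for differences in composition. Crizotinib library 2 and combination library 2 stood apart from the other libraries of their groups. Mitochondrially encoded genes took 11 to 11.9% of reads in the control libraries, 11.5 to 12.7% with IN10018, 13.3, 5.21 and 9.46% in crizotinib libraries 1, 2 and 3, and 6.99, 4.28 and 6.62% in the combination libraries. The epithelial keratins KRT8 and KRT18 were abundant, with medians over the 12 libraries of 1410 and 624 CPM. KRT19 had 0 reads in every library, CDH1 had a median of 3.6 CPM, and of the gastric markers TFF2 had 0 reads while MUC6 had a median of 5.92 CPM. Among the drug targets, ROS1 had 0 reads in all 12 libraries, which allows at most 0.0152 CPM over the pooled libraries (3 counts, counting error only). MET stood at 744 ± 43.8 CPM (SD, n = 3) in control, 647 ± 26.1 with IN10018, 365 ± 77.5 with crizotinib and 259 ± 54.1 with the combination. PTK2 stood at 354 ± 3.95 CPM in control, 339 ± 7.34 with IN10018, 237 ± 57.6 with crizotinib and 174 ± 25.9 with the combination. ALK stood at 3.99 ± 0.468, 3.65 ± 0.2125, 2.37 ± 0.632 and 2 ± 0.224 CPM in the same order. In bulk RNA, fewer cells of a kind and less RNA per cell cannot be told apart.

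Because SPRY2 and SPRED2 were both lower after crizotinib, the genomic bases just upstream of one annotated start of each are shown. Both come from RefSeq (GRCh38.p14), are written 5′ to 3′ on the minus strand of the gene, and contain no annotated exon. Capitals mark GGAA or its reverse complement TTCC, the core that ETS factors recognise. The SPRED2 stretch is chr2:65432638-65432849, 212 bases with a GC content of 61.8%. The SPRY2 stretch is chr13:80339660-80339909, 250 bases with a GC content of 41.2%. It lies upstream of an internal start, within the span of the gene in GENCODE 29.
SPRED2: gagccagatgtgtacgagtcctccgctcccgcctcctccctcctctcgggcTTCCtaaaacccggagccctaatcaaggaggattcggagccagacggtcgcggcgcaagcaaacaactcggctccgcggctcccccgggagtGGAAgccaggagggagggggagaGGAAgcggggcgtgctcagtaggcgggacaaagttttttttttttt
SPRY2: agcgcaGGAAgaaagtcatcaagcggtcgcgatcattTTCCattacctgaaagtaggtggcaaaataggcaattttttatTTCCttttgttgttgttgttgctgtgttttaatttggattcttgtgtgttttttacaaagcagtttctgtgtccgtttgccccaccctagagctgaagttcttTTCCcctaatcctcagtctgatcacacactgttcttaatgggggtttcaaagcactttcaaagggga
The SPRED2 bases held 3 matches to the core and the SPRY2 bases held 4. RefSeq windows of 250 bases were matched for 6 of the 10 members, 9 windows in all, with more than 1 for SPRY2 and SPRED2. All 250 bases of the PHLDA1, DUSP6 and SPRED1 windows, 170 of the SPRY4 window and 38 of 1 SPRED2 window are annotated exon of the gene. Each of the 9 held the core on at least 1 strand, against 92.7% of 35116 windows of all genes. None of the 9 held the longer ETS core CCGGAAGT, which contains GGAA and was found in 3.42% of all windows. The cyclic AMP response element TGACGTCA was in 0 of 9 windows against 1.65%, and its 5-base part TGACG was in 2 of 9 against 21.2%. The AP-1 site TGANTCA was in 0 of 9 against 6.57%, and 1 consensus of the serum response element in 0 of 9 against 0.0313%. The outer letters alone of that element, a CC and a GG that are 6 bases apart, were in 6 of 9 windows against 73.7%. All motifs were searched on both strands, and a match describes letters only.

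The 6 genes that were lower in both groups with crizotinib are protein-coding and lie on 6 chromosomes (GRCh38, GENCODE 29). SPRED2 spans chr2:65310851-65432637, ETV5 chr3:186046308-186110318, SPRY4 chr5:142310427-142326455, PHLDA1 chr12:76025447-76033932 and SPRY2 chr13:80335976-80340951, all on the minus strand. SPRED1 spans chr15:38252326-38357249 on the plus strand. The exons of ETV5 overlap those of DGKG on the same strand by 164 bases, and DGKG had 85 to 134 reads per library.

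In untreated cells the 3 phosphatase genes had the highest levels per length. Per kilobase of exon, DUSP4 stood at 81.5 ± 2.83 CPM (SD, n = 3), DUSP6 at 55.9 ± 4.61 and DUSP5 at 23.9 ± 0.167, and the libraries of these genes did not overlap. SPRY2 at 13.2 ± 0.353 and SPRED2 at 12.5 ± 0.735 CPM per kilobase followed, with overlapping ranges. PHLDA1 stood at 5.85 ± 0.348, ETV5 at 5.48 ± 0.0536, ETV4 at 5.32 ± 0.0581, SPRY4 at 5.2 ± 0.165 and SPRED1 at 5.09 ± 0.281 CPM per kilobase. The ranges of ETV4 and SPRY4 overlapped, as did those of SPRY4 and SPRED1. The 3 phosphatases kept the first 3 places in every group. With the combination, SPRED2 stood at 4.27 ± 0.761 CPM per kilobase, below ETV4 at 6.21 ± 1.17, although their ranges overlapped.

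**Figure D1:**
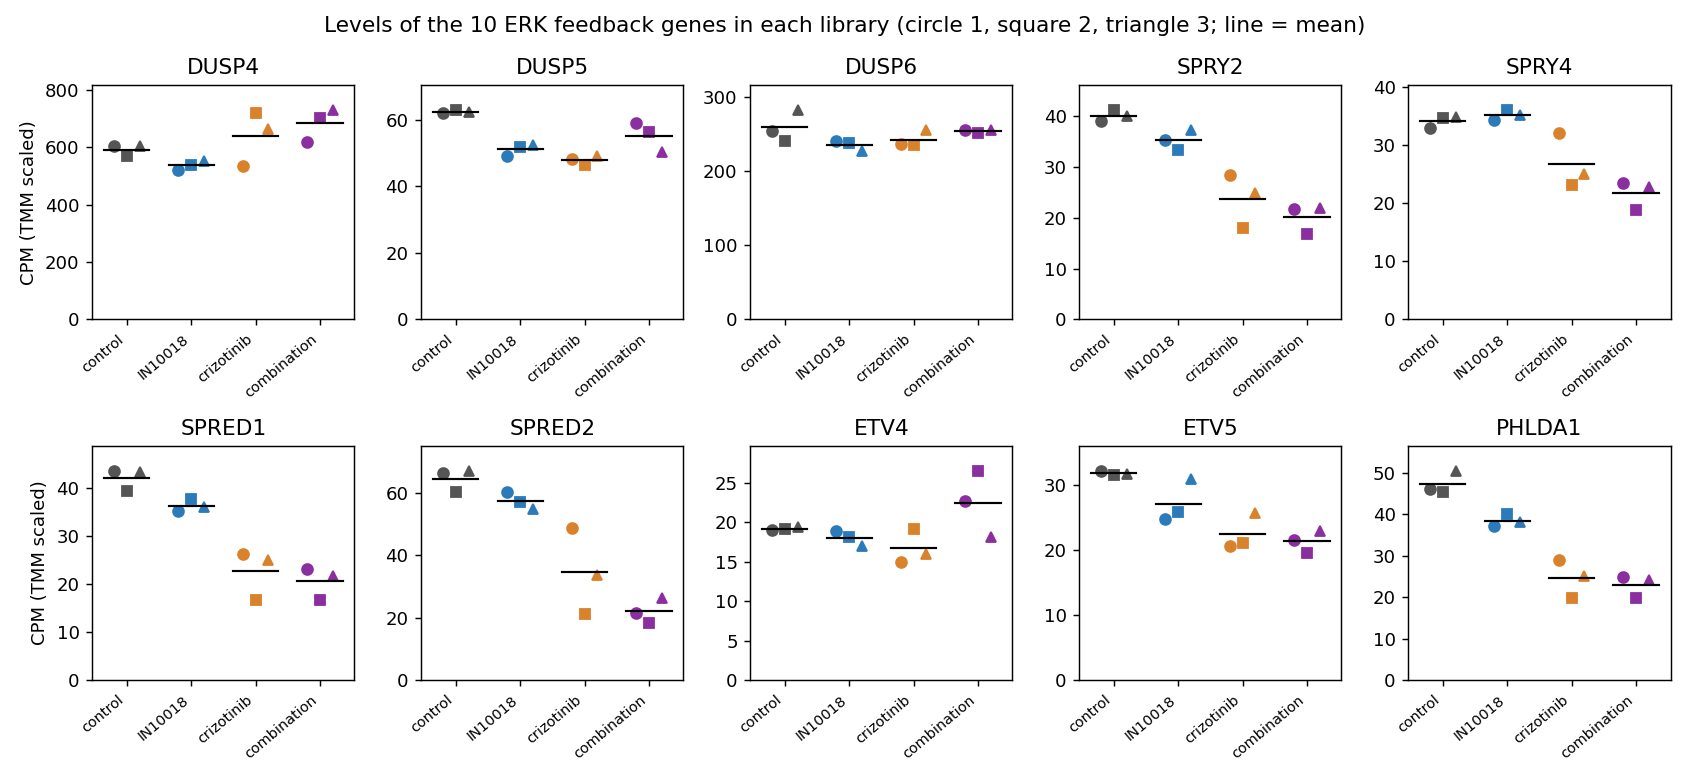
Levels of the 10 genes in each of the 12 libraries, in CPM after TMM scaling on a linear axis that starts at 0, with a separate scale for each gene. Points are libraries 1 (circle), 2 (square) and 3 (triangle) and the line is the group mean; SPRED2 falls from 64.4 CPM in control to 22 CPM with the combination, while DUSP6 stays between 227 and 282 CPM in all libraries.

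Crizotinib alone lowered 7 of the 10 genes and raised none. The 7 were DUSP5, SPRY2, SPRY4, SPRED1, SPRED2, ETV5 and PHLDA1, and DUSP4, DUSP6 and ETV4 did not pass the test. Among all tested genes 17.6% were called lower and 20.0% higher (edgeR quasi-likelihood test, Benjamini-Hochberg adjusted p under 0.05). The same 7 genes had every crizotinib library below every control library, which held for 25.1% of tested genes in this direction. The median log2 fold change of the 10 genes was -0.44, beside 0.08 over all tested genes.

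Of the phosphatases, DUSP5, which acts on nuclear ERK, was measured at 62.2, 62.9 and 62.2 CPM in control libraries 1 to 3 and at 48.1, 46.4 and 49 CPM with crizotinib. All 3 crizotinib libraries were lower, and the spread within each group was small. DUSP5 fell by 23.4%, with a log2 fold change of -0.38 ± 0.0924 (SE, edgeR adjusted p = 0.0084). DUSP6, the cytoplasmic ERK phosphatase, stood at 254, 241 and 282 CPM in control and at 236, 235 and 256 CPM with crizotinib, with overlapping groups. Its log2 difference was -0.10, with a 95% interval from -0.29 to 0.10 (edgeR adjusted p = 0.41). DUSP4, a nuclear phosphatase of several MAP kinases, stood at 603, 568 and 603 CPM in control and at 536, 718 and 664 CPM with crizotinib. Crizotinib library 1 lay below the controls and libraries 2 and 3 above them. Its log2 difference was 0.11, with an interval from -0.13 to 0.35 (edgeR adjusted p = 0.43).

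Among the upstream inhibitors, SPRED2, which restrains RAF activation, stood at 66.2, 60 and 66.9 CPM in control and at 48.6, 21.2 and 33.6 CPM with crizotinib. All crizotinib libraries were lower, but they were spread over a wide range, with library 2 the lowest. The log2 fold change was -0.90 ± 0.216 (edgeR adjusted p = 0.0083), and it ran from -1.22 to -0.65 when each library was left out in turn. SPRED1, a paralog of SPRED2 and a binder of neurofibromin, stood at 43.6, 39.4 and 43.2 CPM in control and at 26.3, 16.7 and 25.1 CPM with crizotinib. Its log2 fold change was -0.89 ± 0.16 (edgeR adjusted p = 0.003), and library 2 was again the lowest of the 3 crizotinib libraries.

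SPRY2, a receptor-level inhibitor of RAS activation, stood at 39, 41.1 and 40 CPM in control and at 28.3, 17.9 and 24.8 CPM with crizotinib. The groups were apart, with a log2 change of -0.76 ± 0.152 (edgeR adjusted p = 0.0043). SPRY4, its relative, stood at 32.9, 34.6 and 34.9 CPM in control and at 32.1, 23.1 and 25 CPM with crizotinib. Crizotinib library 1 lay just under the lowest control. The log2 fold change of SPRY4 was -0.35 ± 0.129 (edgeR adjusted p = 0.045). That call was lost in 10 of the 12 fits that left out a library, with an adjusted p of up to 0.15 and a log2 fold change of -0.26 without crizotinib library 2; it held without crizotinib library 1 and without combination library 2. It was also lost with library totals in place of TMM (-0.23, edgeR adjusted p = 0.15).

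PHLDA1 stood at 45.9, 45.2 and 50.4 CPM in control and at 29.1, 19.9 and 25.2 CPM with crizotinib. Its log2 change was -0.94 ± 0.135 (edgeR adjusted p = 0.0012), and -0.64 with an offset for GC content and transcript length. ETV5 stood at 32.1, 31.5 and 31.7 CPM in control and at 20.5, 21.1 and 25.6 CPM with crizotinib. Its log2 fold change was -0.50 ± 0.122 (edgeR adjusted p = 0.0086). ETV4, its relative, stood at 19, 19.2 and 19.4 CPM in control and at 15, 19.2 and 16 CPM with crizotinib. Library 2 lay within the control range, and the log2 difference of -0.20 did not pass the test (interval from -0.50 to 0.10, edgeR adjusted p = 0.27).

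The values of several genes differed when GC content and transcript length were adjusted for together. ETV4 had a GC content of 60.8%, at the 88.7th percentile of tested genes, and SPRED1 had 38.9%, at the 11.6th. With an offset for GC content and length, chosen after seeing the data, ETV4 was called lower at -0.67 with crizotinib (edgeR adjusted p = 0.00025). DUSP5 reached -0.70, while SPRED1 shrank to -0.41 and stayed called (edgeR adjusted p = 0.0034). Reads of ETV4 may be shared with DHX8 on the opposite strand, whose exons overlap those of ETV4 by 68 bases and which had 778 to 1702 reads per library, because the strand setting of the counting was not given in the sources used here.

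**Figure D2:**
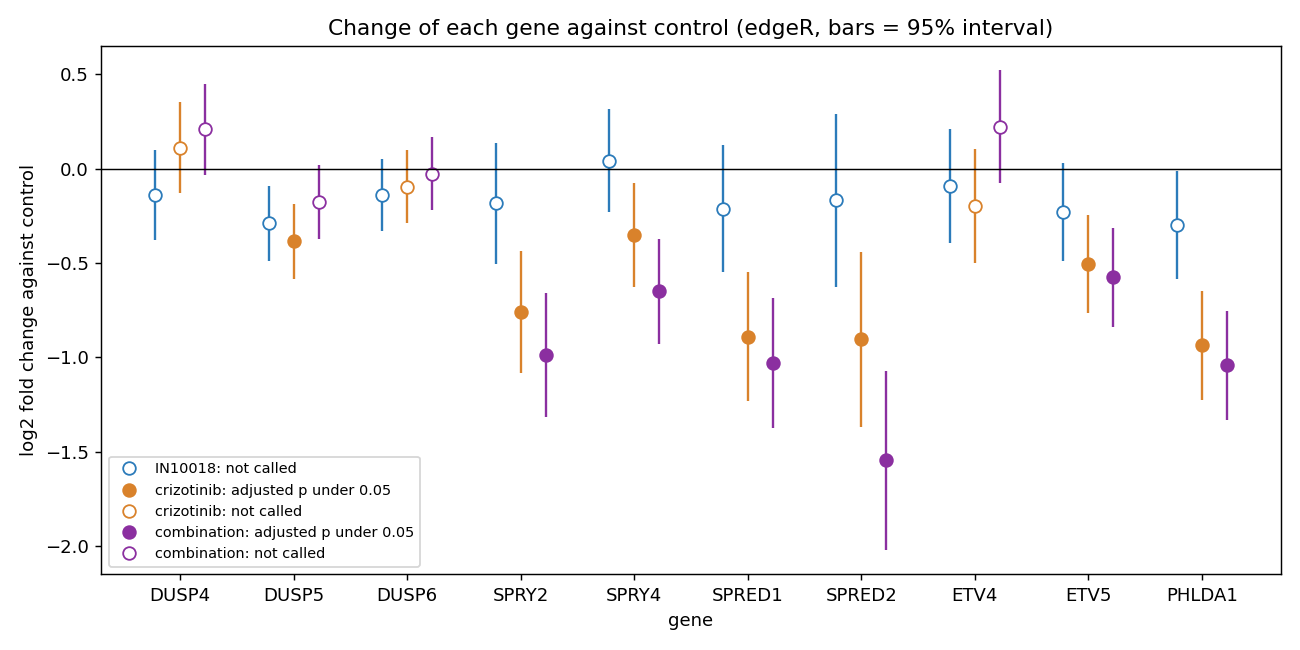
Log2 fold changes of the 10 genes in the comparisons against control, with 95% intervals from the 12-library edgeR fit. Filled points passed an adjusted p of 0.05; with crizotinib they run from -0.94 for PHLDA1 to -0.35 for SPRY4, and with the combination from -1.55 for SPRED2 to -0.58 for ETV5.

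The combination of both drugs lowered 6 of the 10 genes and raised none, beside 29.1% and 33.7% of all tested genes called lower and higher by edgeR. The 6 were SPRY2, SPRY4, SPRED1, SPRED2, ETV5 and PHLDA1. DUSP5 was not among them. The median log2 fold change of the 10 genes was -0.61, beside 0.10 over all tested genes. All combination libraries lay below all controls for 7 genes, the 6 called and DUSP5, beside 33.2% of tested genes, and above them for DUSP4 alone, beside 37.9%. This comparison and that of crizotinib share the same 3 control libraries.

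SPRED2 stood at 21.4, 18.5 and 26.2 CPM with the combination, all far under the lowest control of 60 CPM. It fell by 65.8%, with a log2 change of -1.55 ± 0.222 (edgeR adjusted p = 0.00012). SPRED1 stood at 23.2, 16.7 and 21.8 CPM, with a log2 change of -1.03 ± 0.161 (edgeR adjusted p = 0.00018). SPRY2 stood at 21.7, 16.9 and 21.9 CPM, with a log2 change of -0.99 ± 0.153 (edgeR adjusted p = 0.00017). SPRY4 stood at 23.5, 18.8 and 22.9 CPM, which was -0.65 ± 0.13 on the log2 scale (edgeR adjusted p = 0.00079). In all 4 genes combination library 2 was the lowest of its group, and no combination library reached the control range. The fall of SPRED1 was -0.25 with the GC and length offset, and was still called (edgeR adjusted p = 0.024).

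PHLDA1 stood at 24.8, 19.9 and 24 CPM with the combination, which was -1.04 ± 0.136 on the log2 scale (edgeR adjusted p = 7.9e-05). With the GC and length offset it was -0.55 (edgeR adjusted p = 0.00014). ETV5 stood at 21.6, 19.5 and 22.9 CPM, which was -0.58 ± 0.122 on the log2 scale (edgeR adjusted p = 0.0012). ETV4 stood at 22.6, 26.5 and 18.1 CPM, with libraries 1 and 2 above all controls and library 3 below them. Its log2 difference was 0.22 (interval from -0.08 to 0.52, edgeR adjusted p = 0.18). The direction for ETV4 depended on the offset for GC content and length, under which it was called lower at -0.53 (edgeR adjusted p = 0.00021). Library totals in place of TMM called it higher at 0.40 (edgeR adjusted p = 0.027), as did leaving out combination library 3, at 0.36 (edgeR adjusted p = 0.029).

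None of the 3 phosphatases passed the test with the combination in the 12-library edgeR fit. DUSP4 stood at 618, 702 and 729 CPM with the combination, above every control, with a log2 difference of 0.21 (interval from -0.03 to 0.45, edgeR adjusted p = 0.12). It was called higher with library totals, at 0.39 (edgeR adjusted p = 0.01), and without crizotinib library 1, at 0.21 (edgeR adjusted p = 0.042). DUSP6 stood at 256, 252 and 255 CPM, inside the control range, with a log2 difference of -0.03 (edgeR adjusted p = 0.81). Its direction turned with library totals, at 0.15, and with the GC and length offset it was called higher at 0.22 (edgeR adjusted p = 0.033). DUSP5 stood at 59, 56.3 and 50.4 CPM, below every control, with a log2 difference of -0.18 (interval from -0.37 to 0.02, edgeR adjusted p = 0.11). DESeq2 called DUSP5 lower at -0.26 (DESeq2 adjusted p = 0.022), and the GC and length offset at -0.65 (edgeR adjusted p = 6.3e-05), whereas library totals gave 0.00057.

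Read ratios within a library do not depend on its scaling, but those given here are not adjusted for GC content or transcript length. Reads of SPRY2, SPRY4, SPRED1 and SPRED2 together came to 19.8, 20.1 and 19.5% of those of DUSP4, DUSP5 and DUSP6 in control and to 20.4, 19.9 and 19.6% with IN10018. Crizotinib libraries 1 to 3 had shares of 16.5, 7.89 and 11.2%, and those of the combination had 9.62, 7.01 and 8.97%. The libraries of both crizotinib-containing groups all lay below those of the other groups. SPRED2 reads were 152, 152 and 155% of SPRED1 reads in control and 171, 151 and 152% with IN10018. They were 184, 127 and 134% after crizotinib alone, and 92.3, 110 and 121% after both drugs, where the read counts were closest to equal. Per kilobase of exon, SPRED2 stayed above SPRED1 after both drugs, at 4.27 and 2.49 CPM. With the GC and length offset the log2 changes of SPRED2 and SPRED1 from control were -0.87 and -0.41 after crizotinib and -1.44 and -0.25 after both drugs. ETV4 reads were 59.1, 60.7 and 61.2% of ETV5 reads in control, 72.9, 91.1 and 62.3% after crizotinib alone, and 105, 136 and 79.1% after both drugs. All libraries of both these groups lay above the controls. With IN10018 alone the shares were 76.5, 70.3 and 55.1%, so libraries 1 and 2 also lay above the controls and library 3 lay below them. SPRY2 reads were 119, 119 and 115% of SPRY4 reads in control. The libraries of all 3 drug groups lay lower, with means of 100% for IN10018, 88.3% for crizotinib and 92.7% for the combination. These ratios are descriptions, for groups of 3 libraries. ETV4 no longer rose relative to ETV5 once GC content and length were adjusted for. Crizotinib alone then gave a log2 change from control of -0.67 for ETV4, beside -0.46 for ETV5. Both drugs together gave -0.53 for ETV4, beside -0.45 for ETV5.

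**Figure D3:**
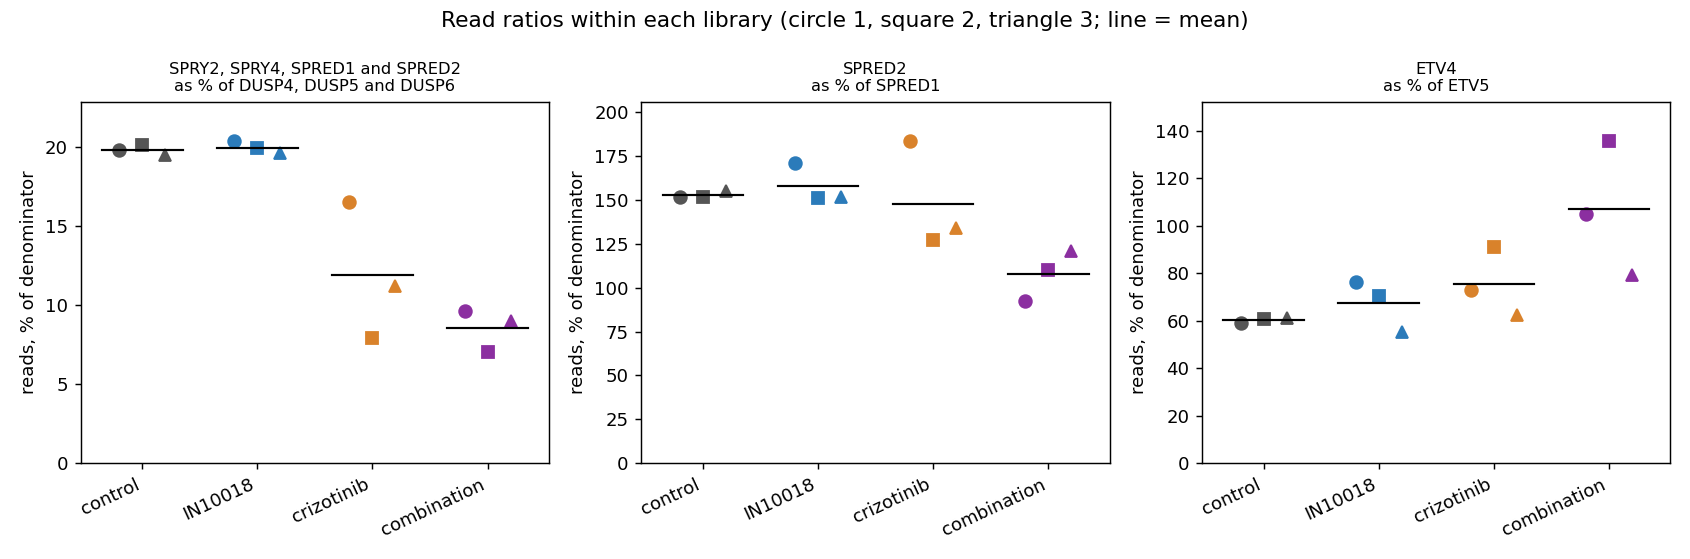
Read ratios within each library, as a percentage of the denominator on linear axes that start at 0, for the Sprouty and SPRED genes over the phosphatases, SPRED2 over SPRED1, and ETV4 over ETV5. Points are libraries and lines are group means; the first ratio has means of 19.8% in control, 19.9% with IN10018, 11.9% with crizotinib and 8.54% with the combination.

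IN10018 alone changed none of the 10 genes past the threshold in the 12-library edgeR fit, in which 0.503% of all tested genes were called in either direction. Of the 10 genes, 9 had a log2 difference below 0, and the median was -0.18 beside -0.02 over all tested genes. For 7 of them every IN10018 library lay below every control, beside 18.9% of tested genes. At an unadjusted p under 0.05 there were 2 genes, DUSP5 and PHLDA1. DESeq2 and limma-voom also called 0.

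DUSP5 stood at 49.2, 51.7 and 52.4 CPM with IN10018, below all controls, with a log2 difference of -0.29 ± 0.0923 (edgeR adjusted p = 0.21). PHLDA1 stood at 37.1, 40 and 38.1 CPM, also below all controls, with a log2 difference of -0.30 ± 0.133 (edgeR adjusted p = 0.43). When only these 2 groups were fitted (6 libraries), so that the spread of the crizotinib libraries did not enter, both were called lower. There DUSP5 was at -0.25 (edgeR adjusted p = 0.0033) and PHLDA1 at -0.26 (edgeR adjusted p = 0.0074), and 5.33% of all genes tested were called lower. In the 12-library fit the 8 others had edgeR adjusted p-values from 0.52 to 0.92. ETV5 stood at 24.7, 25.8 and 30.8 CPM and SPRED1 at 35.2, 37.7 and 36 CPM, with all libraries of both genes below the controls. SPRY4, at 34.4, 36 and 35.1 CPM, was the 1 gene with a difference above 0, of 0.04 (interval from -0.23 to 0.32).

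Between the single drugs at the same dose and time, 5 genes were lower with crizotinib than with IN10018, namely SPRY2, SPRY4, SPRED1, SPRED2 and PHLDA1, and none was higher, beside 10.3% and 11.5% of all tested genes. Their log2 differences ran from -0.74 for SPRED2 to -0.40 for SPRY4, with edgeR adjusted p-values from 0.021 to 0.043. For 6 genes, these 5 and DUSP5, all crizotinib libraries lay below all IN10018 libraries, beside 22.3% of tested genes. These 5 calls fell to 0 in the fit of the 6 libraries alone, where 0.0124% of all genes were called lower and the log2 differences were of like size (-0.74 for SPRED2 and -0.64 for PHLDA1). They also fell to 0 without IN10018 library 1, 2 or 3 or without crizotinib library 3, where at most 0.107% of all genes were called lower. Without crizotinib library 2 there were 2 calls, beside 2.04% of all genes, and without control library 1 there were 3, beside 5.64%. With the GC and length offset SPRED1 was not called, at -0.24 (edgeR adjusted p = 0.075), and PHLDA1 was called at -0.38.

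Adding crizotinib to IN10018 lowered 6 genes and raised 1, beside 27.5% and 29.7% of all tested genes called lower and higher. The 6 were those lowered by the combination against control, and DUSP4 was higher. All combination libraries lay below all IN10018 libraries for the same 6 genes, beside 32.8% of tested genes, and above them for DUSP4 and DUSP6, beside 34.8%. SPRED2 differed most, at -1.38 ± 0.221 (edgeR adjusted p = 0.00043), followed by SPRED1 at -0.82, SPRY2 at -0.80, PHLDA1 at -0.74 and SPRY4 at -0.69. SPRED1 was no longer called with the GC and length offset, at -0.09 (edgeR adjusted p = 0.44), and PHLDA1 was at -0.29 with it (edgeR adjusted p = 0.016). DUSP4 stood at 521, 536 and 552 CPM with IN10018, below each of the 3 combination libraries, a log2 difference of 0.35 ± 0.112 (edgeR adjusted p = 0.016). The DUSP4 call was lost without IN10018 library 1, without combination library 2 and without combination library 3, with adjusted p-values of up to 0.063. ETV5 was lower by a log2 difference of -0.34 ± 0.123 (edgeR adjusted p = 0.027), a call lost without IN10018 library 3 (-0.27, edgeR adjusted p = 0.10) and without combination library 1 or 2. It was also lost with library totals (-0.23, edgeR adjusted p = 0.12), with the GC and length offset (-0.22, edgeR adjusted p = 0.095) and with no filter (-0.36, edgeR adjusted p = 0.067).

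Adding IN10018 to crizotinib changed none of the 10 genes past the threshold in the 12-library fit, in which 0.0117% of all tested genes were called. DESeq2 and limma-voom also called 0, and 4 genes had an unadjusted p under 0.05 in edgeR. SPRED2 was lower by a log2 difference of -0.64 ± 0.221 (edgeR adjusted p = 0.21) and ETV4 higher by 0.42 ± 0.141 (edgeR adjusted p = 0.21), but in both genes the libraries of the 2 groups overlapped. SPRY4 was at -0.30 and DUSP5 at 0.21, each with an edgeR adjusted p of 0.22, and DUSP5 was the only gene of the 10 whose groups did not overlap, beside 5.46% of tested genes in that direction. Libraries with the same number deviated together between these 2 groups. With the replicate number as a block within these 6 libraries, SPRED2 was called lower at -0.58 (edgeR adjusted p = 0.0072) and ETV4 higher at 0.43 (edgeR adjusted p = 0.014), beside 11% and 12.1% of all genes called lower and higher. The block over all 12 libraries called 0 of the 10 genes in either direction, and crizotinib library 1 correlated more with combination library 3 (0.42) than with library 1 (0.22). Without crizotinib library 2, where 17.3% of all genes were called lower and 15% higher, 3 genes were called lower, with SPRED2 at -0.90 (edgeR adjusted p = 0.0044), SPRY2 at -0.40 (edgeR adjusted p = 0.025) and SPRY4 at -0.40 (edgeR adjusted p = 0.026), and ETV4 was called higher at 0.53 (edgeR adjusted p = 0.011).

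Whether the effect of the combination departed from the sum of the single effects on the log2 scale was tested with an interaction term. None of the 10 genes passed, beside 0.0702% of all tested genes, and DUSP5 and ETV4 had an unadjusted p under 0.05. The term was 0.50 ± 0.131 for DUSP5 (edgeR adjusted p = 0.28) and 0.51 ± 0.199 for ETV4 (edgeR adjusted p = 0.56). DESeq2 called DUSP5, at 0.53 (DESeq2 adjusted p = 0.042), and limma-voom called 0 of the 10 genes. Removal of both libraries numbered 2 of crizotinib and combination called DUSP5 and ETV4 higher, beside 5.41% of all genes. A covariate for the first within-group axis called them too, beside 9.22%, at 0.50 for DUSP5 (edgeR adjusted p = 0.00067) and 0.51 for ETV4 (edgeR adjusted p = 0.0047). For SPRED2 the term was -0.48, with an interval from -1.13 to 0.18, and it was called at -0.73 without crizotinib library 2 (edgeR adjusted p = 0.048). Removal of both libraries numbered 2 and the axis also called SPRED2 lower, beside 5.71% and 10.2% of all genes. The axis called SPRY4 lower as well, at -0.34 (edgeR adjusted p = 0.036).

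**Figure D4:**
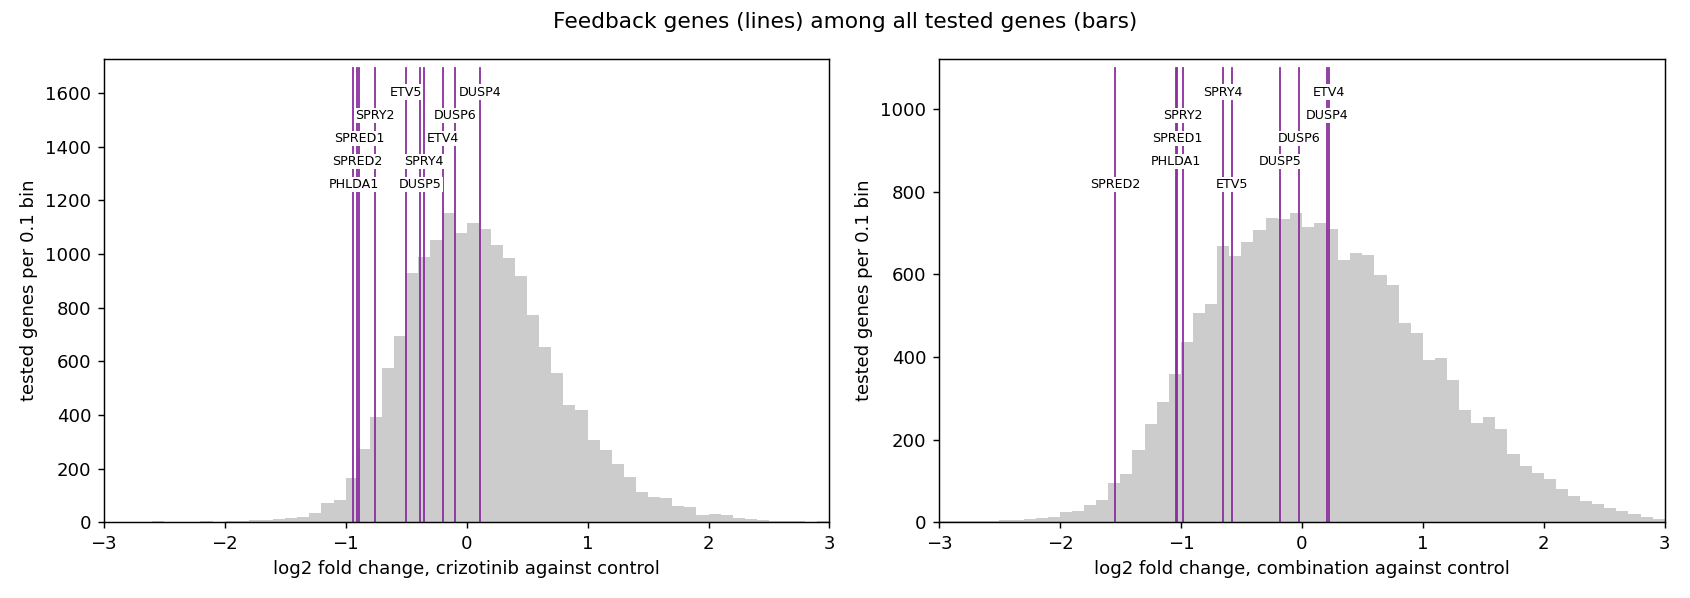
Distribution of log2 fold changes of all 17096 tested genes with crizotinib (left) and the combination (right) against control, with the 10 genes marked by vertical lines. With the combination the genes run from -1.55 for SPRED2 to 0.22 for ETV4, and SPRED2 lies at the 1.57th percentile of tested genes.

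Within these distributions, PHLDA1, SPRED2 and SPRED1 lay at the 2.25th, 2.59th and 2.78th percentiles of tested genes with crizotinib, and SPRY2 at the 5.18th. With the combination SPRED2 lay at the 1.57th, PHLDA1 at the 7.83rd, SPRED1 at the 8.05th and SPRY2 at the 9.04th percentile. ETV5 lay at the 13.8th percentile with crizotinib and the 22.1st with the combination. Genes with nearly the same profile over the 4 group means were found among 12689 genes with a mean log2 CPM of at least 1. The measure was the root mean square difference of the 4 centred group means of log2 CPM, not of single libraries. For SPRED2 the nearest genes were NUP98 (0.0079), ABCC4 and CPD, and for SPRY2 PCGF6 (0.0047), UGCG and PIK3CA. For SPRY4 they were PHKA1 (0.0087), C2CD5 and ALDH1A3, for SPRED1 POLR3G (0.021), ENC1 and PIGA, for ETV5 FAXC (0.0077), NAV2 and RREB1, and for PHLDA1 FHL1 (0.043), MITF and WEE1.

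Other genes of the pathway are set beside the shares of all tested genes that edgeR called, 17.6% lower and 20.0% higher with crizotinib and 29.1% and 33.7% with the combination, and beside all-gene medians of 0.08 and 0.10. Of 21 tested genes that encode the ERK cascade itself, 13 were called lower and 2 higher with crizotinib (median log2 fold change -0.52), and 13 and 2 with the combination (median -0.87), while IN10018 changed none (median -0.12). HRAS, a RAS GTPase, and MAP2K2, which encodes the kinase MEK2, were higher, at 0.81 and 0.76 with crizotinib and 1.22 and 1.10 with both drugs, and are named because they go against the rest of the list. PTPN11, the phosphatase SHP2, was at -0.65 ± 0.119 after crizotinib alone and at -0.94 ± 0.12 after both drugs. BRAF was at -0.55 and -0.80, and NF1, the RAS GTPase activator that SPRED1 binds, at -0.65 and -0.95. These 3 genes were called by edgeR in both comparisons, with adjusted p-values of at most 0.0078.

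Other phosphatases of MAP kinases differed among themselves. Of 6 tested, 2 were lower with crizotinib, and 3 were lower and 1 higher with the combination. DUSP1, an immediate-early phosphatase, was at -1.32 ± 0.171 with crizotinib (edgeR adjusted p = 7e-04) and -1.74 ± 0.174 with the combination, and DUSP16 at -0.48 and -0.68. DUSP9 and DUSP7 did not pass, at -0.34 and -0.23 with crizotinib. Of 5 other receptor-level inhibitors tested, 1 was lower and 1 higher with crizotinib. IL17RD, a membrane inhibitor of FGF signalling, was at -0.81 with crizotinib and -1.15 with the combination, and LZTR1, an adaptor for RAS degradation, was at 0.69 and 1.19. ERRFI1, which inhibits EGFR, was at -0.62 (edgeR adjusted p = 0.083) and -0.99 (edgeR adjusted p = 0.0072), and SPRY1 did not pass in either.

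Of 8 other ETS factors tested, 6 were lower and 1 higher with crizotinib (median log2 fold change -0.43), and 7 and 1 with the combination (median -0.71). ELK3 was at -0.70 and -1.08, ELK1 at -0.64 and -1.03, ELK4 at -0.75 and -1.29 and ETS1 at -0.43 and -0.83, and all 4 passed the edgeR threshold in both. Of 13 other genes known as ERK outputs, 9 were lower and 1 higher with crizotinib (median log2 fold change -0.49), and 6 and 2 with the combination (median -0.38). The genes named from this list and from the ETS list had the smallest edgeR p with crizotinib, and none of those called higher is among them. EGR1, an immediate-early transcription factor, was at -2.03 ± 0.152 with crizotinib (edgeR adjusted p = 4.8e-06) and -2.75 ± 0.159 with the combination, and was the 1 gene of this list called with IN10018, at -1.29 (edgeR adjusted p = 0.002). EPHA2, a receptor kinase, was at -0.58 and -0.79, and the EGFR ligand EREG at -0.80 and -1.38. FOSL1, an AP-1 subunit, was at -0.49 with crizotinib (edgeR adjusted p = 0.012) and did not pass with the combination, at -0.23 (edgeR adjusted p = 0.12). Of the relatives of PHLDA1, PHLDA2 did not pass in either, and PHLDA3 was called higher with the combination at 0.87 (edgeR adjusted p = 0.001).

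**Figure D5:**
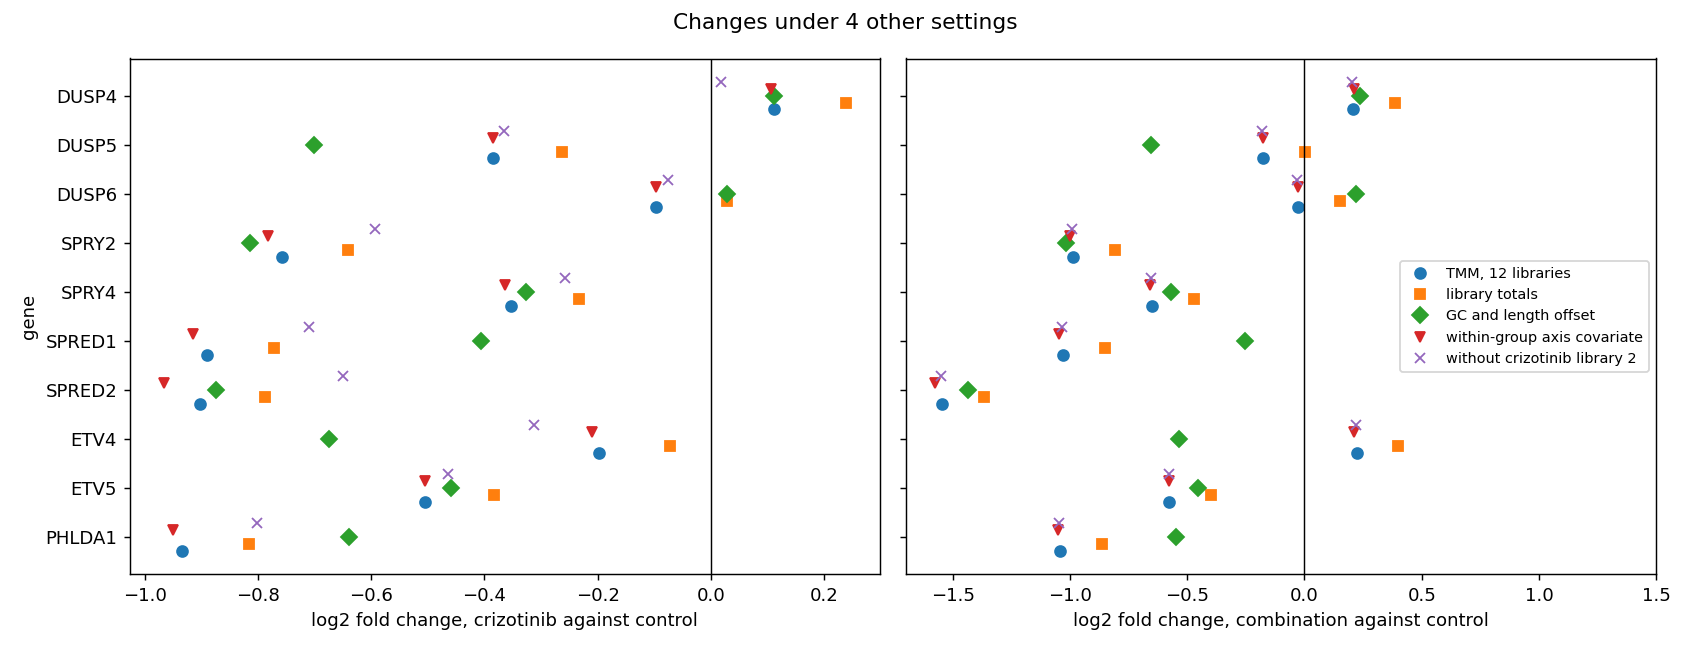
Log2 fold changes of the 10 genes under the fit used in the text (TMM, 12 libraries) and 4 other settings, for crizotinib (left) and the combination (right) against control. SPRY2 and SPRED2 stay at or below -0.59 throughout, whereas ETV4 moves between -0.53 and 0.40 with the combination.

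Several measures moved along with the falls of the Sprouty, SPRED, ETV5 and PHLDA1 levels. The summed level of the 3 endothelial markers (PECAM1, VWF and CDH5) was 18.1 to 21.9 CPM in control and 33.8 to 41.2 CPM with the combination, through PECAM1 at 6.5 and 27.1 CPM, while CDH5 averaged 13.5 CPM in control and 9.42 CPM with the combination and VWF averaged 0 CPM in the 3 drug groups. The 6 gastric markers summed to 2.44 to 3.62 and 12.5 to 29.3 CPM, through MUC6. The 5 adipocyte markers, listed because every library carries a description of adipogenic differentiation, summed to 68.4 to 77.1 and 105 to 133 CPM, through FABP4, with ADIPOQ at 0 reads. The 4 leukocyte markers summed to 19 to 23.6 and 28.4 to 33.6 CPM, through CD14, with CD3E at 0 reads. The 6 fibroblast markers summed to 5.01 to 6.38 and 5.99 to 7.42 CPM, and the 6 epithelial markers to 1970 to 2110 and 2350 to 3570 CPM. The epithelial sum rose through KRT8 at 1390 and 1860 CPM and KRT18 at 616 and 969 CPM. EPCAM averaged 18.6 CPM in control and 17.3 CPM with the combination, CDH1 5.2 and 2.84, and ELF3 0.103 and 0.0666. KRT19 had 0 reads. The part of these markers in the results, and that of the mitochondrial share, was not tested. Without both libraries numbered 2, 8 genes were called lower with crizotinib and 6 with the combination against control, beside 18.4% and 28.6% of all genes.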

How the data were processed

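The deposited matrix holds raw read counts per gene for 12 libraries. Per the submitters' processing notes, the authors used Trimmomatic, FastQC, HISAT2, featureCounts and DESeq2 with hg38 and GRCh38. Versions, annotation release and strand setting are not given in the sources used here. A directional kit was used, per the labels' protocols. The 10 genes and the gene lists were chosen with earlier results of these data known.

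Libraries were grouped by the treatment label. All 12 entered 1 fit in edgeR 4.0.16 (R 4.3.3) with filterByExpr, TMM and a robust quasi-likelihood test, and p-values were adjusted over 17096 genes. There were 7 comparisons, including the interaction. The common biological coefficient of variation was 0.139. Each gene of the 10 is given with its own value for crizotinib and for the combination against control. From each list up to 4 genes with the smallest p for crizotinib against control are named, and for genes called in at least 2 of the 3 comparisons with control the 3 most similar profiles. A gene that this rule names in the list of cascade genes is not reported here. Upstream bases were meant for the 3 genes with the smallest p. The windows of PHLDA1 and SPRED1 overlap annotated exons and are not shown, and SPRED2 was added after its values were seen. GENCODE 29 gave positions, exon lengths and GC content.

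Same-number libraries of crizotinib and combination correlated in their residuals at 0.22 to 0.62 (other numbers -0.53 to 0.42). Their numbers were taken to pair them on this ground alone, from the same libraries that the block was then fitted to. No label states what the numbers mark. For the other pairs of groups at least 1 correlation was at or under 0.1. Libraries of 1 group differed beyond sampling noise. The fit was tested on simulated data.

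Alternatives were 2 other scalings (library totals, and the size factors of DESeq2), 2 other filters (none, or 1 CPM in 3 libraries and 100 reads), a replicate block over 12 or 6 libraries, only the 6 libraries compared, DESeq2 1.42.0, limma-voom (limma 3.58.1), removal of both libraries numbered 2 of crizotinib and combination, the first within-group axis as a covariate, and leaving out each library. An offset for GC content and length was chosen after seeing the data.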

Additional observations from a re-analysis of the deposited data

Results flagged for a closer look

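DUSP5 had an IN10018 difference of -0.29 without crizotinib and 0.21 with it on the log2 scale, opposite in sign, and neither was called. The edgeR adjusted p was 0.21 and 0.22. With the GC and length offset the difference with crizotinib was 0.047 (edgeR adjusted p = 0.81). All 3 IN10018 libraries (49.2, 51.7 and 52.4 CPM) lay below all 3 controls (62.2, 62.9 and 62.2 CPM), beside 18.9% of tested genes. All 3 combination libraries (59, 56.3 and 50.4 CPM) lay above all 3 crizotinib libraries (48.1, 46.4 and 49 CPM), beside 5.46% of tested genes. The difference between the log2 effects was 0.50. The interaction test did not call it (edgeR adjusted p = 0.28), nor did limma-voom, while DESeq2 did (DESeq2 adjusted p = 0.042). It was also called with the axis (edgeR adjusted p = 0.00067) and without both libraries numbered 2 of crizotinib and combination. In these 2 settings 9.22% and 5.41% of all genes had an interaction called higher. Over the alternatives that left out 1 library the edgeR adjusted p ran from 0.052 to 0.72.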

How the results depend on the processing

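Of 1660 repeats of the 70 values of the 10 genes, 1519 kept their direction and side of the threshold, 62 lost a call, 56 gained one and 23 turned direction. The 6 genes lower with the combination against control kept that call in every setting run, and leaving out a library gave 6 there and 6 to 7 for crizotinib against control. Library totals moved the median of all genes by 0.124 (crizotinib), 0.178 (combination) and 0.0656 (IN10018) on the log2 scale. The cause of the changes below was not tested.

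Library totals turned DUSP5 (0.00057) and DUSP6 (0.15) for the combination against control and DUSP6 (0.028) for crizotinib against control, and the stricter filter turned DUSP6 (0.0072) for the combination against control. The GC and length offset turned DUSP6 (0.029) for crizotinib against control. For the combination against control it turned DUSP6 (0.22, called higher) and ETV4 (-0.53, called lower). For the combination against IN10018 it turned DUSP5 (-0.34) and ETV4 (-0.42), both called lower. It also turned ETV5 (0.0067), PHLDA1 (0.091) and SPRED1 (0.16) for the combination against crizotinib, and the interaction of SPRY2 (0.00079). DESeq2 turned SPRY4 (-0.0051) for IN10018 against control. Leaving out a library gave ranges that crossed 0 for the combination against crizotinib in DUSP4 (-0.025 to 0.19), ETV5 (-0.14 to 0.022) and PHLDA1 (-0.24 to 0.018), for crizotinib against IN10018 in DUSP6 (-0.0092 to 0.065), and for the interaction in SPRED1 (-0.11 to 0.16, with -0.022 and -0.018 without combination library 1 and 3) and SPRY2 (-0.21 to 0.074, with 0.028 without combination library 2).

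The share of all genes called moved with these settings too: the lower share was 0.158% for IN10018 against control in the text and 1.36 to 7.02% in the settings that gave 2 lower, and 0.0117% for the combination against crizotinib and up to 19.2% with the axis. The count of genes higher was 2 with library totals, 2 with the within-group axis and 1 with the GC and length offset for the combination against control (0 in the text). For the combination against IN10018 (1 in the text) it was 3 with library totals and 2 with the replicate block over 12 libraries, the axis or the offset. For the combination against crizotinib (0 in the text) it was 1 with the replicate block within 6 libraries, 1 without both libraries numbered 2 and 2 with the axis, and the count lower was 1 with no filter, 1 with that replicate block, 1 without both libraries and 3 with the axis. For crizotinib against IN10018 the axis gave 1 higher, and the 6 libraries alone gave 0 lower in place of 5. For IN10018 against control the 6 libraries alone, the block within them, removal of both libraries numbered 2 and the axis each gave 2 lower. For the interaction DESeq2 gave 1 higher, removal of both libraries 2 higher and 1 lower, and the axis 2 higher and 2 lower. Leaving out a library gave 0 to 1 higher for the combination against control, 0 to 1 higher and 0 to 3 lower for the combination against crizotinib, 0 to 2 higher for the combination against IN10018, 0 to 1 higher and 0 to 5 lower for crizotinib against IN10018, and 0 to 1 lower for the interaction. For the other comparisons the replicate numbers are only a shared label, and the replicate block within 6 libraries gave 6 lower for both crizotinib and the combination against control. The lowest count of a gene of the 10 in any library was 241 reads.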
